A study of Mus musculus with 2 samples.

Results

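Long noncoding RNA (lncRNA) promoters that stand apart from promoters of protein-coding genes were examined in DNase-seq data of the mouse cerebral cortex. Peaks from either library were merged wherever they overlapped, by 1 bp or more. A merged peak was a member when it held a peak of each library, lay on chromosomes 1 to 19, had its centre within 1 kb of an annotated lncRNA start, and had it more than 5 kb from every protein-coding transcript start. This gave 1642 members of 78595 shared merged peaks on these chromosomes, out of 154220 merged peaks in all. The lncRNA gene types taken were lincRNA, antisense, sense_intronic, processed_transcript and bidirectional_promoter_lncRNA of GENCODE M21 on mm10, which is the same build as GRCm38.p6.

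DNase-seq lightly cuts nuclei with DNase I and sequences the freed ends, so that cuts accumulate where DNA is not wrapped in nucleosomes. Left cerebral cortex was taken from 2 females of the B6CASTF1/J strain, 2 months old, which are first-generation hybrids of C57BL/6J and CAST/EiJ. They form 1 group without treatment, with 1 library per animal, called replicate 1 and replicate 2. Both libraries carry the same donor entry, but separate female and replicate numbers, and were taken as separate animals on that basis. The cortex was not sorted, so for any peak fewer cells with accessible DNA and less cutting per cell cannot be told apart.

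A lncRNA is a long transcript with no known protein product. Many are made by the same polymerase as messenger RNAs, from promoters where transcription factors keep a short stretch free of nucleosomes. Some act in the nucleus, as Malat1 and Neat1 do in nuclear bodies, some silence neighbouring genes on 1 parental copy, and others mainly carry microRNAs or small nucleolar RNAs (snoRNAs) in their introns or exons. Since many lncRNA genes begin beside a coding gene, the distance limit keeps peaks whose accessibility does not lie at a coding start as well.

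The members ranged from CpG-rich windows with words of general promoter factors to windows with the words of factors found at distal sites. The following 150 bp windows on the peak centre are examples, all of them with a motif match. The reference bases were read from GRCm38.p6 on the strand of the lncRNA gene, with every motif match in capitals. They were chosen among known lncRNAs and the strongest members by peak height, and Snhg7os and Mirg for a CTCF and a NEUROD match. Strong windows without a match, those of Gm15408 and Lncpint, are not shown. Most members (1308 of 1642) were not CpG-rich, so these windows do not stand for the members as a whole.
Snhg15 (chr11:6528786-6528935, minus strand): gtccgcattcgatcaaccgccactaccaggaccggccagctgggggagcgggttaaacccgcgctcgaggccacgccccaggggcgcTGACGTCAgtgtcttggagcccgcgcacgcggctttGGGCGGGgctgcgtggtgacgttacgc
Snhg8 (chr3:123508386-123508535, minus strand): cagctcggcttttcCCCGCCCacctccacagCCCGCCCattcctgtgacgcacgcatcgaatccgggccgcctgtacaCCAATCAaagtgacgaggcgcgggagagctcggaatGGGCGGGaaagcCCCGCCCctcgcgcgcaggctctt
Malat1 (chr19:5803526-5803675, minus strand): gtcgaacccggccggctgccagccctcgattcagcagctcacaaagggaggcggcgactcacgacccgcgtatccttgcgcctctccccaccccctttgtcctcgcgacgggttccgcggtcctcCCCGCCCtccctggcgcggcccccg
Mir22hg (chr11:75461476-75461625, plus strand): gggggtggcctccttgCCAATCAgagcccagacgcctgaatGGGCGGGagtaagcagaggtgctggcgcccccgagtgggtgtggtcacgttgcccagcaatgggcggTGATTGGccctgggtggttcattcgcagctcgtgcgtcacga
Dleu2 (chr14:61648806-61648955, minus strand): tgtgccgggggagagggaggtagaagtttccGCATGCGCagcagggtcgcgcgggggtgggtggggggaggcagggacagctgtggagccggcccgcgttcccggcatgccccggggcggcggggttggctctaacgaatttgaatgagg
1700028E10Rik (chr5:151368616-151368765, plus strand): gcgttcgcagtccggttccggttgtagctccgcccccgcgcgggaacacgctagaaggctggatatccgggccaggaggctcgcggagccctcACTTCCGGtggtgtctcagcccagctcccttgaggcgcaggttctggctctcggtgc
Tmem250-ps (chr2:26140396-26140545, minus strand): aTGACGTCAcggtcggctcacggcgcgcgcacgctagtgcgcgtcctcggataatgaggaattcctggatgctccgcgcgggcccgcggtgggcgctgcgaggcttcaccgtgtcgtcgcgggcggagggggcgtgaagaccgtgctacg
Snhg7os (chr2:26640226-26640375, plus strand): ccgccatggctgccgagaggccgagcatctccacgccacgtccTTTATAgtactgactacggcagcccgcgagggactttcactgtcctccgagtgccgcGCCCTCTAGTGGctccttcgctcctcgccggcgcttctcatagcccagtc
Mirg (chr12:109748406-109748555, plus strand): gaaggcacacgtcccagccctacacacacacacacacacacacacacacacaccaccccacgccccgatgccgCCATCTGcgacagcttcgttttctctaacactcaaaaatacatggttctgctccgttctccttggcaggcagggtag
The capitals mark the following words, searched on both strands. GGGCGGG is the box of SP and KLF factors, found in Snhg15, Malat1 and Mir22hg and at 4 places in Snhg8. TGACGTCA is the cyclic AMP response element (CRE) of Snhg15 and Tmem250-ps. CCAATCA or CCAATCG or CCAATGA or CCAATGG is the CCAAT box of NFY, which Mir22hg holds on either side of its SP/KLF word. GCGCATGC is the NRF1 word in Dleu2, and CCGGAAGT the ETS word in 1700028E10Rik. CAGATGG is the E-box used for NEUROD factors in Mirg. In Snhg7os the longer run of capitals matches the CTCF consensus, and the other is TATAAA on the opposite strand. A match is a description of the letters and not evidence that the factor was bound.

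Whole-series facts bear on these values as follows. Peak heights came in steps of a fixed size, which, read as the scaled value of 1 cut, put the depth near 206 M cuts for replicate 1, with 208 M for replicate 2. All 7 of 7 cortical marker genes, among them Neurod2, Tbr1 and Emx1, had a shared peak within 1 kb of a coding start, and 0 of 8 genes of tissues outside the brain did. Of all merged peaks that met the distance limits, 59.8% were shared (1642), 633 were called in replicate 1 alone and 469 in replicate 2 alone. The members thus lay between coding starts, where 72.2% of merged peaks were shared, and all merged peaks on these chromosomes with 52.2%.

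Most members belonged to lincRNA genes. By the nearest lncRNA start, 1063 members were lincRNA, 337 antisense, 218 processed_transcript and 24 sense_intronic, and 0 lay at a bidirectional_promoter_lncRNA start. Their centres lay a median of 47588 bp from the nearest coding start, and 480 lay more than 100 kb away. Of the members, 345 (21%) had their centre inside the body of a protein-coding gene, beside 55.5% of all shared peaks. The limit on coding starts in part sets this difference. Distal peaks, over 5 kb from coding starts and over 1 kb from any start, have the same limit and had 46.8%. The share was 70.3% for antisense members and 4.33% for lincRNA members, a difference that the definitions of these annotation classes largely set. A merged peak covered the nearest start in 717 members (43.7%). The centre lay upstream of it in 837 members and at or downstream of it in 805, at a median absolute distance of 233 bp.

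Shared peaks thinned out with distance from a lncRNA start, and their CpG content went with it. More than 5 kb from coding starts, 503 shared peaks had their centre within 100 bp of the nearest lncRNA start. Between 900 and 1000 bp there were 86, and between 4 and 5 kb there were 48.7 per 100 bp of distance. A peak was called CpG-rich when the 300 bp on its centre held more than 50% G+C and a CpG ratio, observed over expected, above 0.6. This applied to 29.6% of the peaks within 100 bp, 8.14% of those between 900 and 1000 bp and 7.39% of those between 4 and 5 kb. Just beyond the limit, between 1 and 1.5 kb, the rate was 71.4 per 100 bp and the CpG-rich share 8.68%, so both ran on across it.

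**Figure D1:**
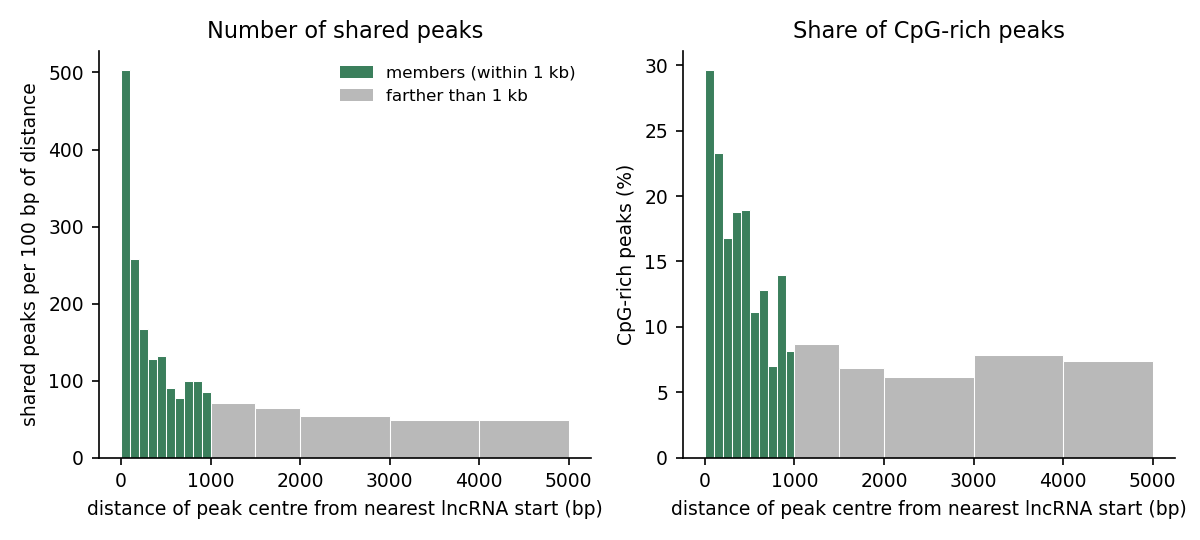
Shared peaks more than 5 kb from coding starts, by distance of the peak centre from the nearest lncRNA start in bp: left, peaks per 100 bp of distance; right, percent of them that are CpG-rich. Green bars are members, grey bars peaks beyond the 1 kb limit; the first bar holds 503 peaks and the rate is 48.7 per 100 bp at 4 to 5 kb.

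The peaks nearest to each limit, on either side, are given as examples, and are too few to show how the values run across it. The members just inside 1 kb, both at 998 bp, had peak heights of 1.95 and 2.06 (C130071C03Rik) and of 0.785 and 0.682 (Gm15998) in replicates 1 and 2. The peaks just outside, at 1002 and 1005 bp, had 1.56 and 1.36 (Gm11840) and 0.305 and 0.365 (Gm32351). Nearest to the coding limit, members 5005 bp from Lgr6 (Ptprv) and 5016 bp from Pik3c3 (AC102496.1) had 1.61 and 2.31, and 0.567 and 0.427. Outside it, peaks 4945 bp from Slfn14 (AA465934) and 4913 bp from Fen1 (Gm10143) had 3.01 and 3.92, and 1.63 and 2.70.

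The authors' cut-rate tables list stretches with a local cut rate at a false discovery rate (FDR) below 0.05. Pooled over starts, the share listed had a narrower profile at lncRNA starts than at coding starts. Over the 1374 nearest lncRNA starts of members, the start itself was listed in 62.9% in replicate 1 and 58.3% in replicate 2. Over 17045 starts of coding promoter peaks it was 91.9% and 90.1%. The stretch of positions listed at 50% or more of the highest share spanned 925 and 825 bp at lncRNA starts, against 1175 and 1050 bp at coding starts. At both kinds of start the transcribed side was listed more often: 500 bp downstream of lncRNA starts it was 33.6% and 27.5%, and 500 bp upstream 26.5% and 21.5%. These starts were chosen for a peak within 1 kb, so the height of the profile is a description of the members. Its span pools many starts, so it also holds the scatter of peaks around them and is not the width of 1 accessible stretch. The median merged peak was 294 bp wide in members and 321 bp in coding promoters.

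**Figure D2:**
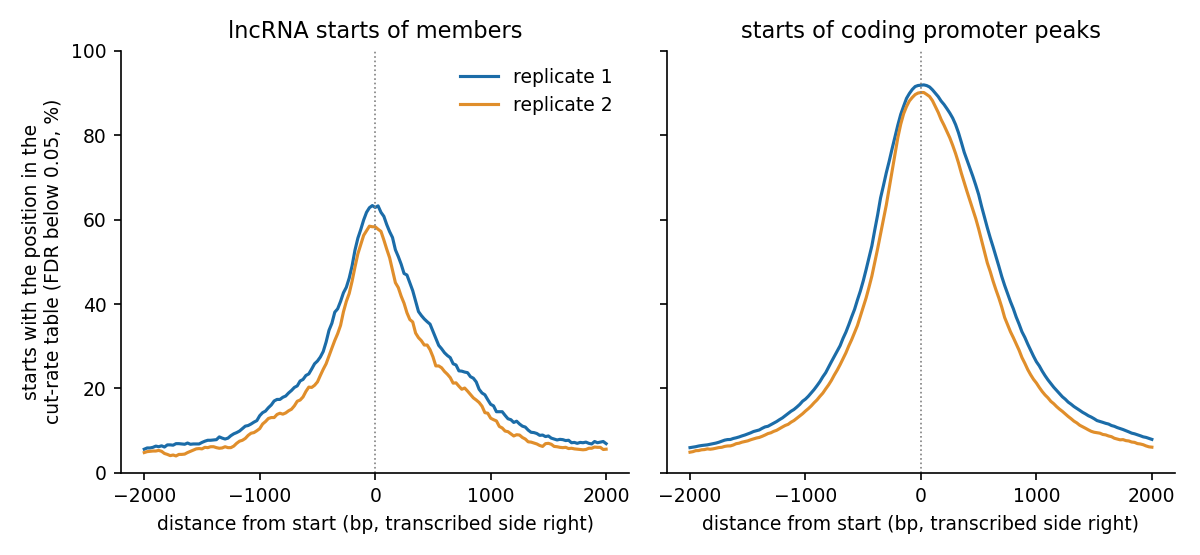
Percent of starts at which a position is listed in the authors' cut-rate table (FDR below 0.05), from 2 kb upstream to 2 kb downstream in steps of 25 bp, for the nearest lncRNA starts of members (left) and the nearest starts of coding promoter peaks (right). Lines are replicates 1 and 2; at the start they reach 62.9% and 58.3% at lncRNA starts and 91.9% and 90.1% at coding starts.

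Members were weaker than coding promoters and stronger than distal peaks, which lie over 5 kb from coding starts and over 1 kb from any start. The signal is the authors' height of the cut density in a peak, normalized by them to depth. The median member had 0.826 in replicate 1 and 0.828 in replicate 2, a mean of 0.827 ± 0.00176 (SD, n = 2). Coding promoters had a median of 1.72 ± 0.0310, distal peaks 0.649 ± 0.0267 and all shared peaks 0.801 ± 0.0224 (SD, n = 2 each). The gaps to coding promoters and to distal peaks exceeded the spread between the animals, but no test was made, since an exact sign-flip test over 2 animals cannot give a two-sided p below 0.5. The 2633 lncRNA promoters within 5 kb of a coding start, at 1.67 ± 0.0170 (SD, n = 2), were near coding promoters in height. Their median distance to a coding start was 182 bp, so most of them were also counted as coding promoters. That overlap in part sets the likeness.

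The members' signal went with CpG content. In all, 334 members (20.3%, Wilson 95% interval 18.5% to 22.4%) were CpG-rich, beside 22.6% of all shared peaks, 68.4% of coding promoters and 3.55% of distal peaks. The CpG-rich members had a median height of 1.74 and 1.64 in replicates 1 and 2, and the other 1308 members 0.739 and 0.737. Set beside peaks of the same kind, CpG-rich members lay between CpG-rich coding promoters, with 2.50 and 2.59, and CpG-rich distal peaks, with 1.06 and 1.06. Members that were not CpG-rich lay nearer to such coding promoters, with 0.828 and 0.797, than to such distal peaks, with 0.625 and 0.663, in replicate 1 and in replicate 2 alike. Among gene types, processed_transcript members had the largest CpG-rich share, 31.7%, and a median height of 1.03 and 0.970. LincRNA members had 18.4% and heights of 0.799 and 0.802.

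**Figure D3:**
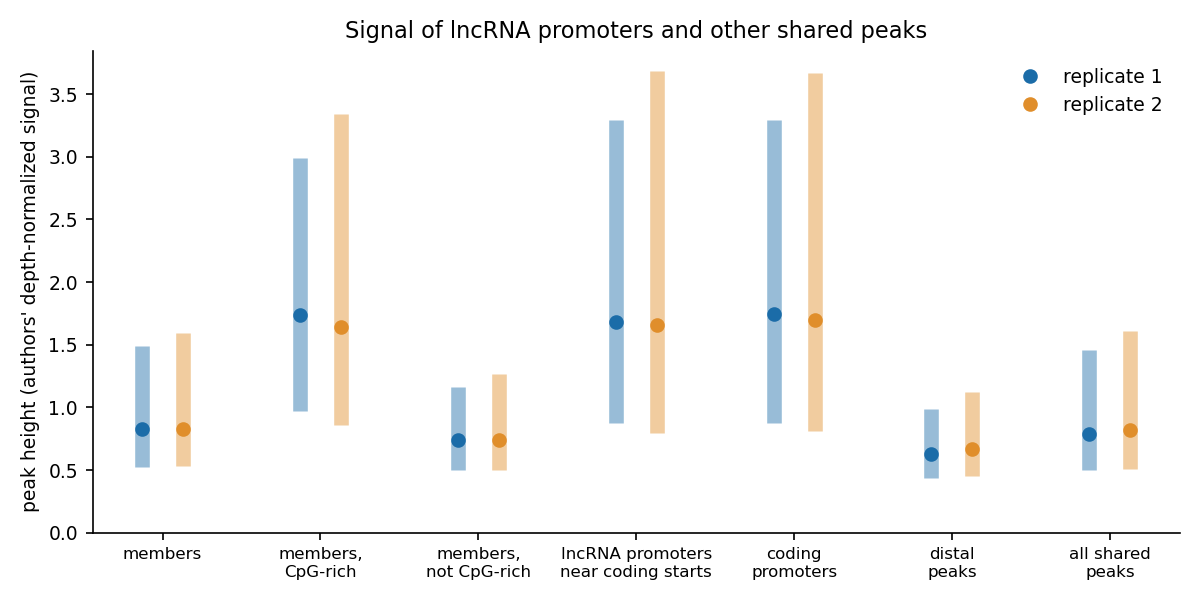
Peak height (the authors' depth-normalized signal) in replicates 1 and 2; points are medians over peaks and bars run over the middle 50% of peaks, from the lower to the upper quartile. The members' medians are 0.826 and 0.828, those of CpG-rich members 1.74 and 1.64, those of coding promoters 1.74 and 1.70, and those of distal peaks 0.630 and 0.668.

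Both animals ranked the members, which had to be called in both libraries, alike. Across the 1642 members the Spearman correlation of the heights in replicates 1 and 2 was 0.935. The Pearson correlation of their log2 values was 0.951. For all shared peaks the Spearman correlation was 0.941 and for coding promoters 0.977. These are given as a description, because the points of a library share its depth. Peaks called in 1 library alone are left out, so they do not measure agreement over all calls. After centring the log2 ratio on all shared peaks, 6 members (0.365%) were more than 2-fold apart, beside 0.762% of all shared peaks. Among members at or above the median height, 4930597A21Rik was furthest apart, with 0.586 in replicate 1 and 1.75 in replicate 2. A weaker peak of Pvt1, a lncRNA gene beside Myc, had 0.891 in replicate 1 and 0.466 in replicate 2.

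Most members passed the authors' stricter calls. Of the members, 1038 (63.2%) overlapped a peak of the smaller list, called at an FDR of 0.001, in both libraries, beside 60.8% of all shared peaks, 82.9% of coding promoters and 51.7% of distal peaks. At least 1 footprint, a short protected stretch within accessible DNA, had its centre in 1398 members (85.1%) in both libraries, beside 83.4% of all shared peaks. Both shares were close to the background. The largest numbers of footprints were found in broad peaks, since footprints were counted over the whole peak. A Gm6410 peak of 1200 bp held 23 footprints in replicate 1 and 15 in replicate 2, and a 2410080I02Rik peak of 1020 bp held 20 and 15. Per 100 bp of peak, members held 1.01 and 0.886 footprints, coding promoters 1.21 and 1.06, and distal peaks 0.924 and 0.855.

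Words of SP/KLF, NFY, ETS, NRF1, CRE, TATA, AP-1, NEUROD and CTCF were compared between classes by the share of windows holding one. For each of these, the members as a set, pooled over distance from a start, lay between coding promoters and distal peaks. GGGCGGG was found in 8.95% of members, 27.3% of coding promoters, 3.10% of distal peaks and 10.0% of all shared peaks. With the whole merged peak searched in place of 150 bp, the share of members was 16.5%. The CCAAT words of NFY were in 5.24% of members, 11.4% of coding promoters and 4.41% of distal peaks, and 6.34% of all shared peaks. CCGGAAGT was in 0.914% of members, 3.46% of coding promoters, 0.218% of distal peaks and 1.12% of all shared peaks. All are words of factors that act at many promoters. EGR, MEF2 and RFX words, in at most 0.765% of each of these classes, did not follow that order, and an NFI match was found in 1 member.

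The words that mark distal sites ran in the other order. CAGATGG, the E-box of NEUROD factors, which are active in cortical excitatory neurons, was in 6.03% of members, 2.33% of coding promoters, 9.53% of distal peaks and 7.15% of all shared peaks. TGACTCA or TGAGTCA, the word of AP-1, which neuronal activity induces, was in 5.42% of members, 1.88% of coding promoters, 7.63% of distal peaks and 5.74% of all shared peaks. Over the whole merged peak, the share of members was 10.35%. CTCF, a factor that organizes chromatin loops, had a consensus match in 4.75% of members, 1.12% of coding promoters, 7.83% of distal peaks and 5.91% of all shared peaks. These shares changed with distance from a start. SP/KLF words were in 12.9% of the 503 members within 100 bp of a start and 5.5% of the 364 furthest members. NEUROD E-boxes were in 4.77% and 9.07% of the same groups, and CTCF matches in 3.18% and 7.14%. For these words the furthest members lay nearer to distal peaks than the members as a set did. AP-1 and TATA shares moved away from distal peaks, from 5.57% to 4.40% and from 3.58% to 3.02%. Words overlapping each other were not kept apart, and a window with several matches of a word counted once.

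**Figure D4:**
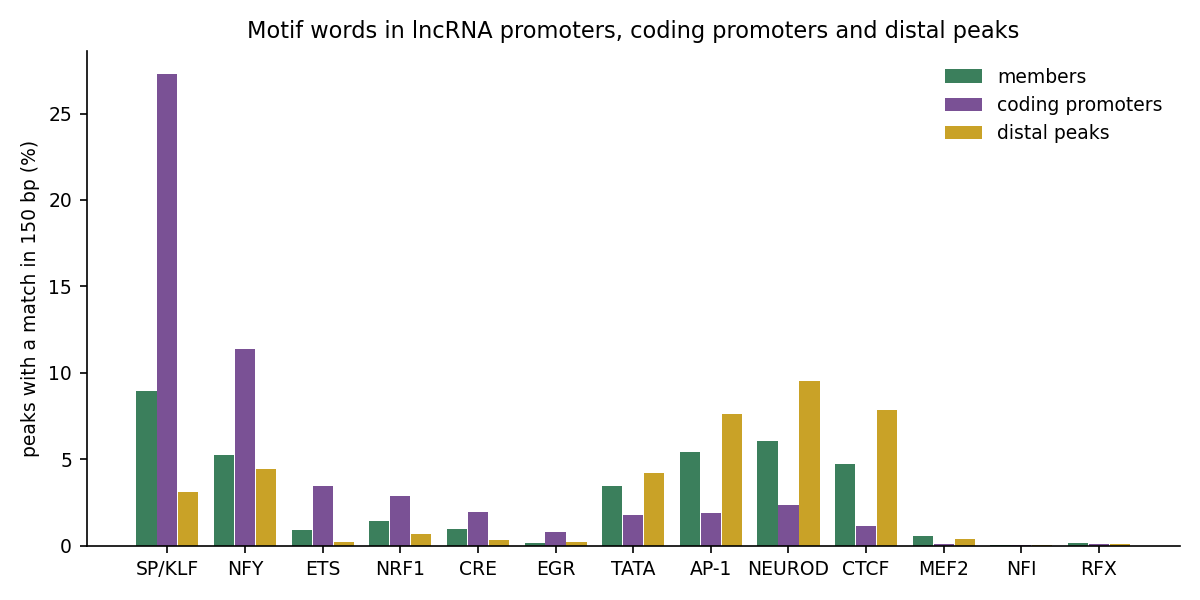
Percent of peaks with at least 1 match of a motif in the 150 bp on the centre, on either strand, for members, coding promoters and distal peaks. SP/KLF words are in 8.95% of members, 27.3% of coding promoters and 3.10% of distal peaks, and CTCF matches in 4.75%, 1.12% and 7.83% of the same classes.

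CpG content split the members by these words too. SP/KLF words were in 24.9% of CpG-rich members and 4.89% of the others. The E-box of NEUROD was in 2.69% of CpG-rich members and 6.88% of the others, and CTCF matches in 2.69% and 5.28%. TATAAA stood 20 to 40 bp upstream of 0.946% of the members' nearest starts, 1.23% of all lncRNA starts away from coding starts and 1.45% of coding transcript starts. A TATA box at the annotated start was thus uncommon in each class.

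Members with a CTCF match were strong, and the match lay almost always under a footprint. The 78 such members had median heights of 1.73 in replicate 1 and 2.08 in replicate 2, and the 1564 without a match 0.804 and 0.797. The strongest, at the start of Snhg7os, the transcript antisense to a snoRNA host gene, had 6.10 and 6.86. A footprint overlapped 75 of 78 matched words in replicate 1 and 78 of 78 in replicate 2. In all shared peaks the shares were 96.0% and 97.5%, so the members did as peaks with this match did elsewhere. A footprint overlapped 24.7% and 31.2% of AP-1 words and 48% and 45% of NEUROD words in members, with 24.3% and 28.5%, and 41.8% and 44.9%, in all shared peaks. The CTCF consensus is longer than these words. Word length and peak height were not matched between motifs, so these shares do not compare how the factors protect DNA.

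CTCF-matched members were relatively higher in replicate 2. Their centred log2 ratio of replicate 1 over replicate 2 had a median of -0.19, beside 0.05 for members without a match. In all shared peaks CTCF-matched peaks had medians of 1.22 in replicate 1 and 1.56 in replicate 2, so the tilt ran through the series. Height moved with it: the 411 strongest members had a median ratio of -0.10 and the 411 weakest 0.11. Among the 411 strongest, the 54 with a CTCF match had -0.18 and the 357 without one -0.08.

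A smaller share of lncRNA genes than of coding genes had a shared peak within 1 kb of a start. Of 6903 lncRNA genes with a start more than 5 kb from coding starts, 1275 (18.5%, Wilson 95% interval 17.6% to 19.4%) had a shared peak within 1 kb. Per library it was 22.2% in replicate 1 and 21.6% in replicate 2. Of 20757 protein-coding genes, 65.3% had a shared peak within 1 kb of a start. The coding genes had a median of 2 starts and the lncRNA genes 1, and the 5 kb limit applied to the lncRNA genes alone. Among lncRNA types the share was 34.3% for processed_transcript, 18.1% for lincRNA, 17% for antisense and 7.79% for sense_intronic genes. The share also went with the number of annotated transcripts, from 14.8% for genes with 1 to 44.1% for genes with 4 or more, and a gene with more starts has more windows in which a peak can fall.

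Some lncRNA genes held several members. Of 1243 genes named by the nearest start, 945 had 1 member and 57 had 3 or more. The most were 8, at 3110039I08Rik and at Mir99ahg, and 7 each at Gm3764 and Mir124-2hg. Members of 1 gene share a locus and are not independent of each other.

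The strongest member lay in repeated sequence. A peak at the lincRNA gene Gm42418 (chr17:39846781-39846920), known for ribosomal RNA sequence, had a height of 62.9 in replicate 1 and 70.0 in replicate 2. Of its 31-base words, 82.7% were found elsewhere in the genome, so reads from other copies could fall there. The next in order were Gm15408 on chromosome 5 with 8.96 and 10.1, Tmem250-ps on chromosome 2 with 8.10 and 9.17, 1700028E10Rik on chromosome 5 with 7.91 and 8.49, and 6720427I07Rik on chromosome 13 with 7.41 and 8.30. These 4 held no repeated word. The remaining 7 of the top 12 had mean heights from 6.68 to 7.14, and 11 of the 12 were CpG-rich, all but Gm15408. Tmem250-ps is a lincRNA gene in GENCODE M21 and protein-coding in RefSeq. Of all members, 50 (3.05%) lay within 5 kb of a curated RefSeq coding transcript start, with medians of 1.06 and 1.13.

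Few members, like few of all shared peaks, lay mostly in repeats. Of the 1642, 20 (1.22%) had at least 50% soft-masked bases, beside 1.91% of all shared peaks. The median share of soft-masked bases was 5.12% in members and 4.58% in all shared peaks. Words of 31 bases were counted for members alone, so these counts have no background beside them. All 31-base words of 1453 members occurred once in the genome, and 88 members had at least 10% of words found elsewhere. None held a word of the mitochondrial genome.

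Lists of known lncRNAs were then read for their members. Of 64 entries in 6 lists, 55 were found as lncRNA genes in the annotation, and 33 of these had at least 1 member. A further 9 had a shared peak within 1 kb of a start that was too near a coding start, and 13 had no peak in either library. Over all lncRNA genes with a start away from coding starts, 18.5% had a shared peak within 1 kb. It was 44.1% for those with 4 or more annotated transcripts. Some listed genes have many annotated starts, such as 17 at Mir99ahg and 20 at Rian, and the lists were not matched for this. Across all lncRNA genes with a member, the median height of the strongest member, as the mean of both libraries, was 0.900. In 28 of the 33 listed genes it was higher. The strongest of several members is high by choice, so genes with many members are favoured in this value. The lists were chosen with earlier results of these data known, so the counts describe the listed genes alone.

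Hosts of snoRNAs, which carry guides of ribosomal RNA modification in their introns, had strong starts. Of 11 found, 7 had a member, and the other 4 (Gas5, Snhg1, Snhg3 and Snhg18) had a shared peak near a coding start. Snhg15 (chr11:6528761-6528960), whose CRE and SP/KLF words are shown above, had 5.98 in replicate 1 and 7.43 in replicate 2. Snhg8 had 5.04 and 6.03, and Snhg5 had 3.14 and 5.11. All 3 were higher in replicate 2. Snhg12, Snhg6, Snhg17 and Snhg20 had mean heights of 3.23, 2.78, 2.39 and 1.86. The strongest member of each of the 7 was CpG-rich and lay within 150 bp of a start.

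Hosts of microRNAs had the most members. Of 10 found, 9 had a member and together they held 41, while Mir142hg, host of a microRNA of blood cells, had no peak. The hosts of miR-124, the microRNA most typical of neurons, had 4 members at Mir124a-1hg and 7 at Mir124-2hg. Their strongest had 2.07 in replicate 1 and 2.01 in replicate 2, and 1.70 and 1.59. Mir9-3hg and C130071C03Rik, hosts of miR-9, which acts in neural progenitors, held 6 each, with strongest heights of 2.67 and 2.15, and 2.76 and 2.86. Replicate 1 was the higher in 3 of these 4 hosts, by less than 1.5-fold. A further peak of Mir9-3hg was among the members whose libraries lay furthest apart, with 1.21 and 0.701.

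Other hosts spanned the range. Mir22hg, whose start lies between a pair of CCAAT boxes shown above, had 4.73 in replicate 1 and 6.50 in replicate 2. Mir670hg had 2.49 and 3.75, Mir17hg, host of a growth-promoting cluster, 2.35 and 2.41, and Mir99ahg 2.13 and 2.16. Mir155hg, host of a microRNA of activated immune cells, was the weakest, with 0.470 and 0.504.

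Imprinted lncRNAs, which are made from 1 parental copy, had members in 6 of 9, and Nespas, an antisense gene, had a shared peak near a coding start. At Meg3, the maternally expressed gene of the Dlk1-Dio3 domain, 5 members had mean heights from 0.511 to 2.61. The strongest, at 773 bp downstream of a start, had 2.77 in replicate 1 and 2.45 in replicate 2. Mirg, a microRNA-bearing gene of the same domain, had 1.12 and 1.13 at the peak with the NEUROD E-box shown above. Rian, which lies between them, had no peak, and neither had H19. Peg13, which lies in an intron of Trappc9 and is paternally expressed, had 2.41 and 3.20.

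Kcnq1ot1 and Airn are paternally expressed antisense RNAs that silence neighbouring genes. Kcnq1ot1 had 2.21 in replicate 1 and 3.01 in replicate 2, and Airn 0.698 and 0.528. Snhg14, the long transcript antisense to Ube3a, had 0.547 and 0.346, and 70.0% of the 31-base words of that peak occurred elsewhere. That peak lay 298558 bp from the nearest coding start, of Snurf. Peaks within 5 kb of a coding start could not be members, so the value does not stand for every Snhg14 start. Both animals are hybrids, but alleles were not analysed here, so the values sum the maternal and paternal copies.

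Of the neural and nuclear lncRNAs, Malat1 was the strongest. A peak 929 bp upstream of the nearest Malat1 start (chr19:5803501-5803700) had 5.19 in replicate 1 and 7.69 in replicate 2, and a peak 19 bp upstream of a start 4.16 and 5.49. Neat1, the scaffold of paraspeckles, had 2.30 and 3.13, and Miat, a nuclear lncRNA of neurons, 1.99 and 1.89. Rmst, a partner of Sox2 in neurogenesis, had 0.649 and 0.620, and Sox2ot, whose gene surrounds Sox2, 0.586 and 0.672. Both lay below the median of lncRNA genes. Dlx6os1, Six3os1 and Otx2os1, which lie beside developmental homeobox genes, had no peak, and Pantr1 had one near a coding start.

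Widely expressed lncRNAs had members in 5 of 6, and Tug1 had a shared peak near a coding start. Dleu2, whose NRF1 word is shown above, had 4.20 in replicate 1 and 4.08 in replicate 2. Lncpint had 2.99 and 3.90, Epb41l4aos 2.74 and 3.59, Pvt1 1.92 and 1.80, and 2900097C17Rik 1.44 and 1.26. Of 10 lncRNAs known from tissues outside the brain, 1 had a member, 2 (Fendrr and Hoxd3os1) had a shared peak near a coding start, and 7 had no peak, among them Hotair, Hottip and Mhrt. The gene with a member, Bvht, known from heart development, had 1.32 and 1.53 at a peak that was not CpG-rich. Over all lncRNA genes with a start away from coding starts, 18.5% had a shared peak within 1 kb. A lack of members is thus common and not particular to this list.

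**Figure D5:**
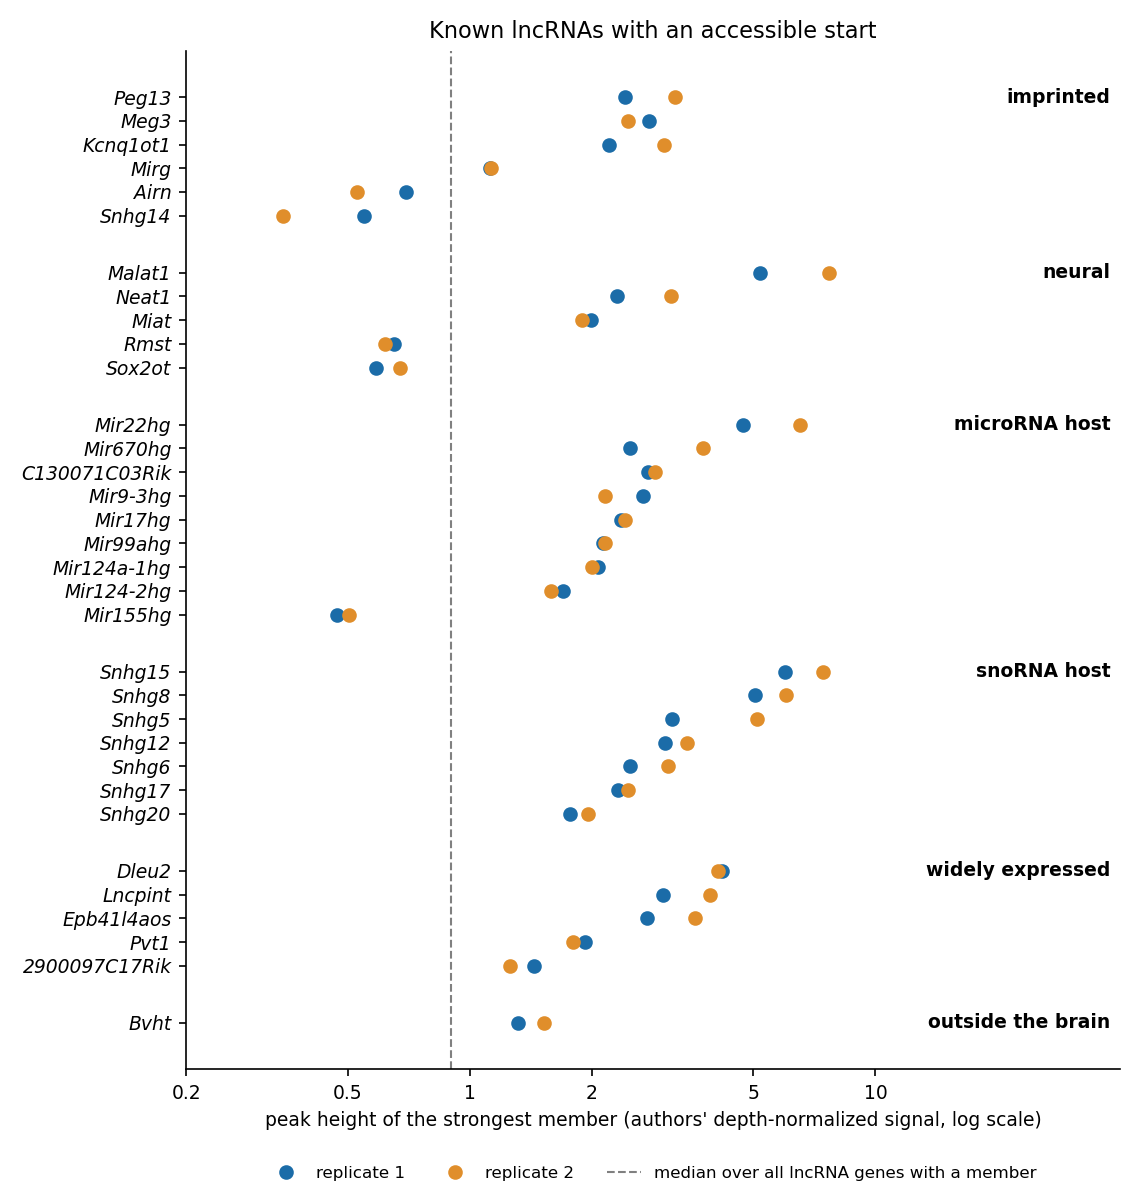
Height of the strongest member of each listed lncRNA in replicates 1 and 2 (the authors' depth-normalized signal, log scale), grouped by list; the dashed line is the median over all lncRNA genes with a member, 0.900. Snhg15 and Malat1 are the highest of the 33, and Snhg14, Mir155hg, Airn, Rmst and Sox2ot lie left of the line in both replicates.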

How the data were processed

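The authors aligned reads to mm10 and called peaks on each library alone, per the labels; for the aligner and callers, names and versions were not given in the sources used here. The deposited peak tables give a signal, the height of the cut density normalized by the authors to depth. The larger list has an FDR of 0.05 and the smaller of 0.001, read from the values. In the deposited footprint tables each call has its FDR as a fraction, always 0.01. Deposited cut-rate tables hold q-values below 0.05. Reads of the CAST/EiJ copy may align less often, which would lower the signal there.

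Peaks were merged and placed on GENCODE M21 with Python 3.11.15, pandas 2.3.3, numpy 2.4.6 and scipy 1.17.1, after tests on simulated data. CpG content was taken from 300 bp and motif words from 150 bp on the peak centre. Wilson intervals cover counting error only, and replicate values are mean ± SD over the 2 libraries. With 1 group, nothing was tested and no p-value was computed.

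Members named are those of the lncRNA lists, the 12 strongest, the 5 whose libraries lay furthest apart among members at or above the median, the 5 with most footprints, and those at the limits. Members and lists were chosen with earlier results of these data known. Sequences are from RefSeq's GRCm38.p6. Alternatives changed the peak list, the overlap, both distance limits, the annotation, the library, the repeat filter, the window searched for motifs, the footprint overlap and the centring of the ratio. One cortical marker gene of the list is not reported here.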

Additional observations from a re-analysis of the deposited data

How the results depend on the processing

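The number of lncRNA genes with a member stayed within 1.5 times its value under every alternative, and the number of members under all but 1. Of 76 values recomputed with both libraries, 52 stayed within the SD or Wilson interval of the reported value, or within 1.5 times it for counts, and 24 did not. Shares in the stricter list and with a footprint are here means over the libraries used, each read alone. For the members as reported these means were 72.59% and 91.05%. They are not to be set against the 63.2% and 85.1% given above, which asked for both libraries at once. The smaller peak list gave 1042 members, a median signal of 1.23, 0.0960% more than 2-fold apart, 95% with a footprint, 27.5% CpG-rich, 6.62% with a CTCF match, 11.2% with an SP/KLF word, 54.3% upstream of the start and 0.672% mostly soft-masked. Its peaks are the stronger ones by construction. Centres within 500 bp gave a signal of 0.869, 74.0% in the stricter list, 91.6% with a footprint, 24.1% CpG-rich and 53.6% upstream. The median signal, whose SD between libraries was 0.00176, was 0.842 with an overlap of 50%, 0.808 beyond 10 kb from coding starts, 0.818 where every transcript of a coding gene set the limit, 0.834 with outermost starts alone, and 0.824 for members with under 10% repeated words. Those members were 71.8% in the stricter list and 0.579% mostly soft-masked. Searching the whole merged peak gave SP/KLF words in 16.5% and AP-1 words in 10.35% of members. A limit from RefSeq, chosen after seeing the data, gave 0.820. With 1 library left out, and its peaks no longer required, members numbered 2265 without replicate 1 and 2406 without replicate 2, with signals of 0.653 and 0.630. The stricter list then held 60.6% and 59.4%, footprints 80.7% and 80.2%, CpG-rich windows 18.4% and 17.2%, CTCF matches 3.84% and 3.28%, and mostly soft-masked peaks 2.30% and 2.24%; the cause was not tested. No paired analysis was possible because both libraries belong to 1 group. With 2 animals, and at weak peaks that 1 library missed, absence of a call was not shown to be absence of accessible DNA.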
